A study of Mus musculus with 5 samples.

Results

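The genes described here are 8 members of the Fc receptor and immunoreceptor adaptor system of the mouse, chosen by name: Fcgr1, Fcgr2b, Fcgr3, Fcgr4, Fcer1g, Tyrobp, Trem2 and Syk. They are 8 of 21774 protein-coding genes in the RefSeq annotation, and all 8 symbols were found. Each was followed through 5 lists of DNaseI hypersensitive sites, places where the nuclease DNaseI readily cuts chromatin. A site was given to a gene if it lay within 1 kb of any of the gene's transcription start sites (TSSs), or if it lay inside the gene or up to 100 kb from its TSS and no other protein-coding gene had a nearer TSS. The first kind is called a promoter site below.

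All cells came from a mouse embryonic stem cell line of strain 129 with a GFP reporter in Brachyury and were differentiated in culture. The stages were mesoderm (MES, positive for Bry:GFP and negative for Flk1), hemangioblast (HB, positive for both), hemogenic endothelium (HE, positive for Tie2 and cKit and negative for CD41), hematopoietic progenitor cells (HP, CD41+) and, last, CD11b+ macrophages (MAC). Each stage gave 1 list, with 37456 sites in MAC, 17734 in HP, 33305 in HE, 24729 in HB and 21949 in MES. For MAC the label names 2 replicates, which the list does not keep apart. With n = 1 there is no replicate error and no test between stages. The lists give start and end alone, so depth is unknown, and where no site is listed the chromatin may still have been accessible. Each population was measured in bulk, so a site open in a few of its cells and one weakly open in all of them cannot be told apart. Of 6 macrophage markers (Itgam, Csf1r, Adgre1, Cd68, Mrc1 and Lyz2), all 6 had a promoter site in MAC and 1 had one in each earlier stage. All 4 markers of MES and HB had a promoter site in both of those stages, and 3 also had one in HE, 1 in HP and 2 in MAC. All 4 HE markers had one in HE, while 1 had one in MES, 2 in HB, 2 in HP and 0 in MAC. Of 3 HP markers 1 (Itga2b, which encodes CD41) had one in HP, while Myb had one in HE alone and Gfi1b in MAC alone, so the HP list, the shortest, also lacked promoter sites at genes that mark its own cells. No promoter site was listed in any stage at 4 mast cell and basophil markers, which include 2 genes of the Fc receptor for IgE, or at 4 markers of T, NK and B cells. Of 4 neutrophil markers 1 had a promoter site in HE and 1 in MAC. Of 3 megakaryocyte markers 2 had one in HE, 2 in HP and 1 in MAC.

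Fc gamma receptors bind the constant part of IgG and let macrophages take up antibody-coated particles. The activating receptors Fcgr1, Fcgr3 and Fcgr4 carry no signalling motif of their own and pair with the Fc receptor gamma chain encoded by Fcer1g, whose tyrosine motif (ITAM), once phosphorylated by Src family kinases, recruits the kinase Syk. Fcgr2b is the inhibitory IgG receptor and acts through phosphatases. Tyrobp encodes DAP12, a second ITAM adaptor, and serves receptors such as Trem2, a receptor for lipids and cell debris on macrophages and microglia.

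All 8 genes had a promoter site in MAC, the only stage in which any of Fcgr1, Fcgr2b, Fcer1g, Tyrobp and Trem2 had one. In the earlier stages a promoter site was listed at 1 member in HE and in MES (Syk in both), 2 in HB (Fcgr3 and Fcgr4) and 0 in HP. For comparison, the percentage of protein-coding genes having a promoter site was 48.7% in MAC, 48.6% in HP, 59.9% in HE, 57.1% in HB and 55.5% in MES, so the members lay above this background in MAC and under it in the 4 earlier stages. A promoter site in MAC and in no other stage was found at 5 of the 8 members and at 375 of all genes, 1.72%. The MAC promoter sites of Fcgr2b, Fcgr3 and Syk were narrower than the median site of the MAC list, 600 bp. When the MAC list was limited to sites of at least 600 bp, 5 of the 8 members kept a promoter site and the share of all genes was 40.1%.

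Counting every assigned site, the members had 43 sites in MAC, 8 in HP, 13 in HE, 11 in HB and 11 in MES. The median per member was 4, 0.5, 1, 1 and 0.5 sites in the same order, and the median over all genes was 1 in every stage. At least 1 site was assigned to 8 members in MAC, 4 in HP, 6 in HE, 5 in HB and 4 in MES, where the shares of all genes were 64.6%, 56.8%, 69.1%, 65.4% and 63.8%. More sites in MAC than in each other stage were found at 7 of 8 members, all except Fcgr1, and at 22.3% of all genes. The DNA covered by members' sites was 27.9 kb in MAC, 5.7 kb in HP, 15.2 kb in HE, 10.9 kb in HB and 7.3 kb in MES. Syk alone held 16 of the 43 MAC sites.

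**Figure D1:**
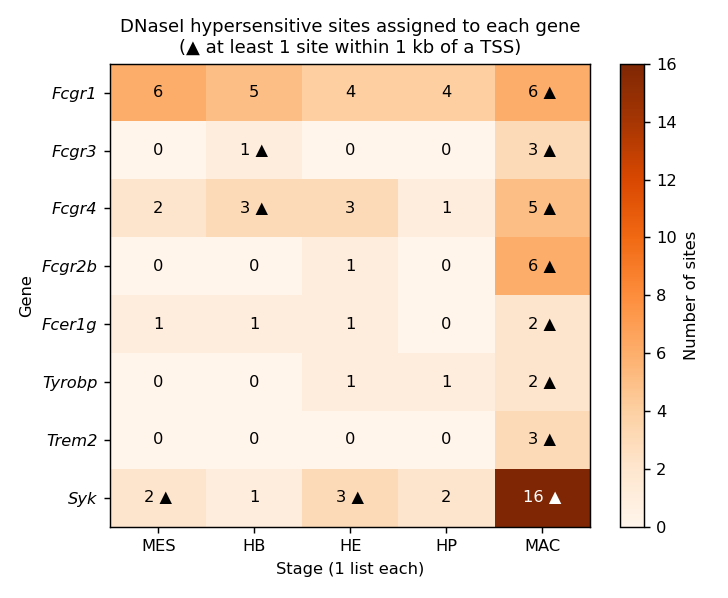
Number of DNaseI hypersensitive sites assigned to each of the 8 genes (rows) in each stage (columns, 1 list each), with a triangle where at least 1 of them lies within 1 kb of a TSS. Every gene has a triangle in MAC, none has one in HP, and the count of 16 at Syk in MAC stands above all others.

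The sites of all 5 lists were then set to 500 bp around their middle, whereas the study used the summit, which the lists do not give. They were joined where they overlapped by as much as the study required. This gave 59 regions for the members, of which 43 were open in MAC. Of these, 34 (79.1%) were open in MAC alone, against 57.1% of all regions open in MAC. Without Syk the count was 18 of 27, a share nearer to the 57.1% of all regions. Of the members' 43 MAC regions, 5 were also open in HP, the stage from which the macrophages were grown, and 8 were open in HE. Of all MAC regions 31.3% were also open in HP and 37.8% in HE.

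The start of 6 members is shown first, from 100 bases before the TSS to 20 bases of transcript (RefSeq, GRCm38.p6), because a short PU.1 motif fell close to the TSS in several of them. PU.1 is an Ets family transcription factor that macrophages depend on. Capitals mark GAGGAA or its reverse complement TTCCTC, the core searched for.
Fcgr1 (chr3:96293950-96294069, minus strand): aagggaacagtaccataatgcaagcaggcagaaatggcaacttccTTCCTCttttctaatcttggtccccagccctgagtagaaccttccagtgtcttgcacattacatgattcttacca
Fcgr3 (chr1:171059384-171059503, minus strand): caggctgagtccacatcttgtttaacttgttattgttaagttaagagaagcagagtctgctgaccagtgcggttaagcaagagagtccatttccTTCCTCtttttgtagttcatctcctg
Fcgr4 (chr1:171018826-171018945, plus strand): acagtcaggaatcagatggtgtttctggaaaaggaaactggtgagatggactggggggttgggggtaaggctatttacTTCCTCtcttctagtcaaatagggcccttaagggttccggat
Fcgr2b (chr1:170976052-170976171, minus strand): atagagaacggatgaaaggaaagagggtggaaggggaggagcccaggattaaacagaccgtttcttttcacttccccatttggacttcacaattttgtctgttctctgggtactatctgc
Fcer1g (chr1:171234330-171234449, minus strand): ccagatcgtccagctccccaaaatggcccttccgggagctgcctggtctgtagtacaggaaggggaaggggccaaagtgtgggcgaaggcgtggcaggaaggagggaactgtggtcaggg
Trem2 (chr17:48346301-48346420, plus strand): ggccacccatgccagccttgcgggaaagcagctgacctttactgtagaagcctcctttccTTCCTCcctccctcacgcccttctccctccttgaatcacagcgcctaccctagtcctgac

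The core began 55 bases before the TSS of Fcgr1, 6 bases before the upstream curated TSS of Fcgr3, 22 bases before that of Fcgr4 and 40 bases before that of Trem2. Syk had it 9 bases before the downstream of its 2 curated TSSs. Fcgr2b and Fcer1g had none in this window or in the 300 bases of their RefSeq promoter entries. The RefSeq promoter table used here has no entry for Tyrobp. In all, 5 of 7 genes with an entry had the core within 100 bases before a TSS, compared with 10.7% of 17492 protein-coding genes with an entry and 10.3% of the 8649 of them with a MAC promoter site. Over the whole 300 bases the figures were 5 of 7 and 30.5% of genes. In the middle 500 bp of the members' 9 MAC promoter sites the core was in 4 (44.4%), near the 41.6% of all MAC promoter sites. The window of 100 bases was chosen after the sequences had been seen. In 4 of the 5 genes the core lay inside a deposited MAC site, the exception being Fcgr4. A match to these letters is a description and does not show binding.

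The activating receptor Fcgr1, the high-affinity receptor for IgG, lies on the minus strand of chromosome 3 with a single TSS at 96293969. Its number of sites was 6 in MAC, 4 in HP, 4 in HE, 5 in HB and 6 in MES, so that the total did not separate MAC from the rest, but the positions did. The MAC promoter site, chr3:96293316-96294315, covered the TSS, and 2 more MAC sites lay 7.0 and 8.85 kb upstream. None of these 3 places had a site in another stage. All sites of the earlier stages were further upstream, from 18.61 to 49.82 kb, in sequence without a protein-coding gene.

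Of these distal places at Fcgr1, 3 were open in all 5 stages. One of them, with its middle 18.8 kb upstream in MAC, overlapped no annotated gene and was 900 to 1200 bp wide in every list. The other 2 lay around 35.1 and 39.9 kb upstream in MAC, beside the small nuclear RNA gene Gm24830 and the tRNA genes n-TVcac10 and n-TNgtt5. Only 51.6% of the 50-base words in an HB site 49.82 kb upstream occurred once in the genome, the lowest value among the 86 sites of the members. Reads, 50 bases long, that fitted several places had been discarded by the authors.

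Fcgr3, the low-affinity activating receptor, lies on the minus strand of chromosome 1 with curated TSSs at 171059394 and 171059403. It had 1 site in HB, 3 in MAC and none in MES, HE and HP. The MAC promoter site, chr1:171059115-171059614, was 500 bp wide and covered both curated TSSs. The others lay in an intron 1.89 kb downstream and at the end of the gene, 8.49 kb downstream. The HB site, chr1:171060048-171061147, lay between the curated TSSs and a predicted TSS at 171061483, within 1 kb of both, and did not overlap the MAC site. Fcgr3 thus had promoter sites in HB and MAC at different places, a pattern of stages shared by 16 genes in all (0.0735%).

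Fcgr4, an activating receptor for IgG2 subclasses, is transcribed from the plus strand of chromosome 1 with its TSS at 171018926. It had 5 sites in MAC, 1 in HP, 3 in HE, 3 in HB and 2 in MES. Its MAC promoter site, chr1:171017015-171018114, stopped 812 bp before the TSS, and the HB site, chr1:171017548-171018247, overlapped it. A HE site, chr1:171016741-171017540, also overlapped the MAC site, but it ended 1386 bp before the TSS and so did not count as a promoter site. Cut to 500 bp around their middle, the HB and MAC sites were joined into 1 region and the HE site stayed apart. No list had a site over the TSS itself. The MAC sites 12.36 and 20.51 kb upstream were seen in no other stage.

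Downstream of Fcgr4 every stage had a site about 19.24 kb from the TSS, and every stage but HP had one about 15.19 kb from it. Both held tRNA genes: n-TDgtc4, n-TGtcc2 and n-TLcag3 at the first and n-TNgtt6 at the second. The sites at the second place also overlapped the non-coding gene Gm35090. Of the 5 regions of the members that were open in 4 or 5 stages, 4 had a site over a tRNA or small nuclear RNA gene, whereas 2 of 47 regions open in a single stage did. In the merged set as a whole this held for 1.23% of regions open in 4 or 5 stages and 0.0989% of those open in 1. Leaving out the sites over such genes left 41 sites in MAC, 6 in HP, 8 in HE, 7 in HB and 7 in MES, a step added after the data had been seen. Fcgr1 and Fcgr4 together held most of the members' sites in each of the 4 earlier stages.

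The inhibitory receptor Fcgr2b lies on the minus strand of chromosome 1 with its TSS at 170976071. It had 1 site in HE, 6 in MAC and none in MES, HB and HP. The MAC promoter site, chr1:170975915-170976214, was 300 bp wide and covered the TSS. Another 3 MAC sites lay within its introns, 2.96, 8.36 and 13.46 kb downstream, and 2 lay 10.94 and 16.59 kb upstream. The furthest upstream was the single place shared with an earlier stage: HE had a site at chr1:170992341-170992940 and MAC one at chr1:170992415-170992914. The middle 500 bp of both held the long PU.1 motif GAGGAAGT, a CEBP motif and a RUNX motif.

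**Figure D2:**
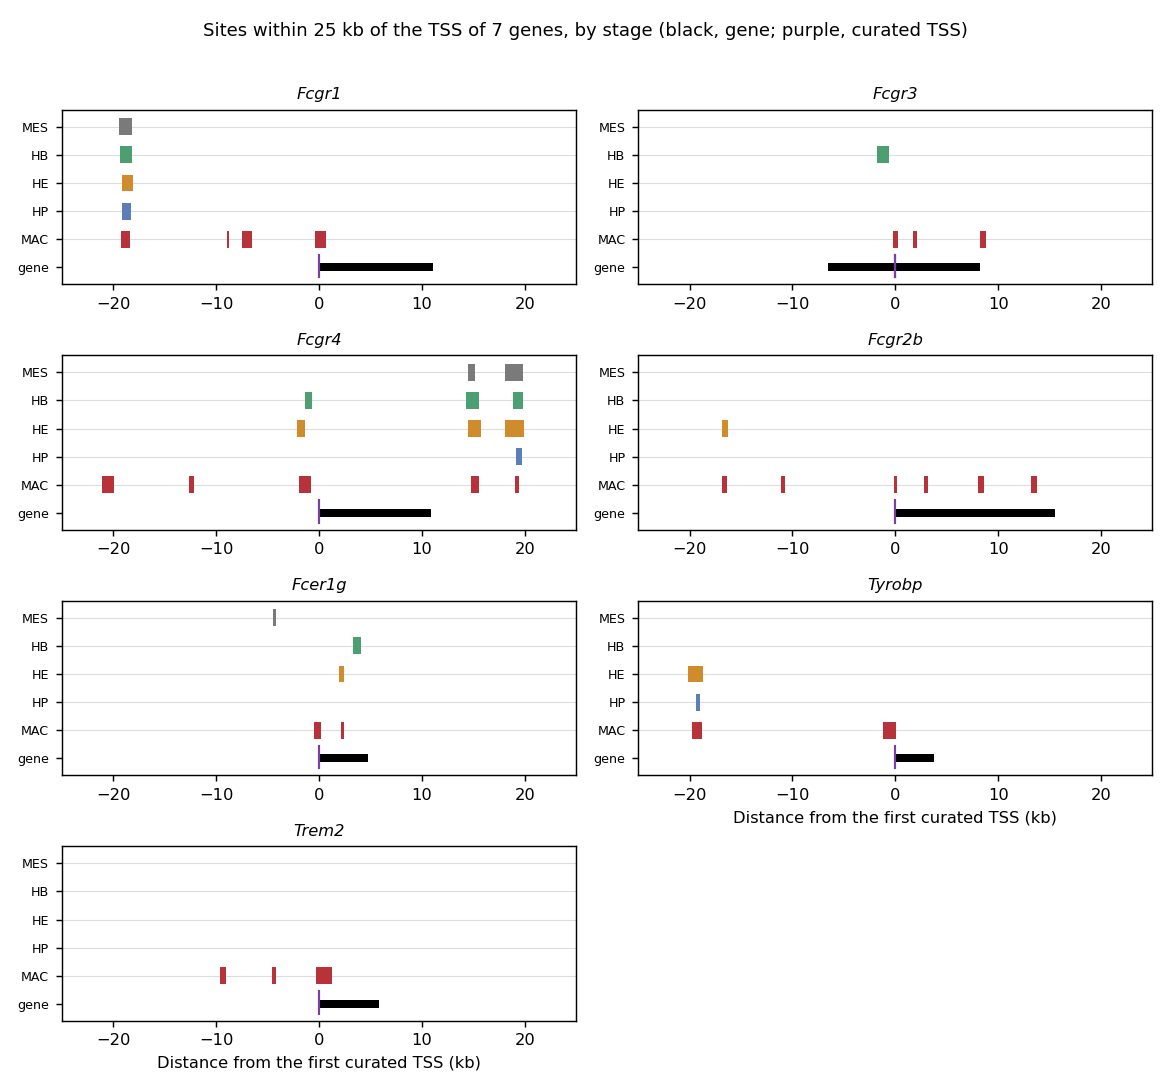
Sites assigned to 7 of the genes within 25 kb of the first curated TSS, drawn by distance from it in the direction of transcription (kb), with 1 row per stage, the gene in black and curated TSSs in purple. At Fcgr1, Fcgr2b, Fcer1g, Tyrobp and Trem2 the only bar within 1 kb of the TSS is that of MAC, whereas the place 18.8 kb upstream of Fcgr1 has a bar in every stage. Sites of Fcgr1 beyond 25 kb are not drawn.

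Fcer1g, the gene of the shared gamma chain, lies on the minus strand of chromosome 1 with its TSS at 171234349. It had 2 sites in MAC, 0 in HP, 1 in HE, 1 in HB and 1 in MES. The MAC promoter site, chr1:171234115-171234814, was 700 bp wide, covered the TSS and held the long PU.1 motif and a RUNX motif in its middle 500 bp. The second MAC site lay in an intron 2.28 kb downstream at chr1:171231915-171232214, where HE also had a site. The HB site 3.7 kb downstream had no counterpart in other lists. The gene was small, at 4.778 kb, and had the fewest MAC sites, together with Tyrobp.

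Tyrobp, the gene of the adaptor DAP12, lies on the plus strand of chromosome 7 with its TSS at 30413782. It had 1 site in HE, 1 in HP, 2 in MAC and none in MES and HB. The MAC promoter site, chr7:30412610-30413809, was 1200 bp wide, covered the TSS and reached into the non-coding gene Gm32029. The other place, shared by HE, HP and MAC, was the only region of the 8 genes with this pattern. HE had chr7:30393627-30395126, HP had chr7:30394377-30394776 and MAC had chr7:30394010-30395009, with the middle 19.41, 19.21 and 19.27 kb upstream of Tyrobp and inside the non-coding gene Gm42376. Tyrobp was its nearest protein-coding gene by TSS, which does not show that it acts on Tyrobp.

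The first 200 bases of the HP site are given because it is the members' single place open in exactly HE, HP and MAC (GRCm38.p6 genome). Capitals mark 3 occurrences of the short PU.1 core and, at the start, the kappaB motif in reverse complement.
Tyrobp upstream site (chr7:30394377-30394576, plus strand): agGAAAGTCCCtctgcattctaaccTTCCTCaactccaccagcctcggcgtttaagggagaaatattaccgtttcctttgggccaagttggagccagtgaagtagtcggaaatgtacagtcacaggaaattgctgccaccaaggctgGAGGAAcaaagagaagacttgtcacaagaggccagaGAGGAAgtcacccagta
In the last of them the core goes on to the long form GAGGAAGT. Among the 43 MAC sites of the members, 1 had the kappaB letters in its middle 500 bp, namely the MAC site at this place, compared with 2.0% of all MAC sites.

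Trem2 lies on the plus strand of chromosome 17 with its TSS at 48346401. It was the only member with no site in MES, HB, HE or HP, and it had 3 in MAC. The promoter site, chr17:48346088-48347687, covered the TSS and reached into an intron. With 1600 bp it was the widest promoter site of the members, and 1.63% of all MAC promoter sites were as wide. The others, 400 and 600 bp wide, lay 4.41 and 9.31 kb upstream. The one at 4.41 kb held PU.1, CEBP, AP1, GATA and IRF motifs in its middle 500 bp.

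Syk, the kinase recruited by ITAM adaptors, is the longest of the genes at 66.183 kb and lies on the plus strand of chromosome 13. RefSeq gives 2 curated TSSs, at 52583437 and 52596882, and 3 predicted ones. It had 16 sites in MAC, 2 in HP, 3 in HE, 1 in HB and 2 in MES. As many as 16 sites in MAC were found at 56 of all genes (0.257%). All 16 Syk regions in MAC were open in MAC alone, so none of the 8 sites of the earlier stages was listed again in MAC.

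The promoter sites of Syk lay at different TSSs in different stages. MES had chr13:52583029-52583628 and HE had chr13:52582667-52583866, both over the upstream curated TSS. In MAC no site lay within 1 kb of that TSS. The nearest were 1675 bp downstream of it and 1299 bp upstream of the predicted TSS at 52582610. MAC instead had chr13:52596612-52597111 over the downstream curated TSS, with its middle 13.42 kb downstream of the upstream one. A narrow MAC site, chr13:52628612-52628811, lay 732 bp from a predicted TSS further inside the gene. HB and HP had no promoter site at Syk. The pattern of promoter sites in MES, HE and MAC, taken over all TSSs of a gene, was found at 57 genes (0.262%).

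The pair of curated Syk promoters is shown from 180 bases before the TSS to 20 bases of transcript (RefSeq, GRCm38.p6), because they differ in the density of CpG, the dinucleotide that is common in broadly used promoters and rare elsewhere. Capitals mark each CpG and, in the downstream promoter, the GAGGAA core 9 bases before the TSS.
Syk upstream promoter (chr13:52583257-52583456, plus strand): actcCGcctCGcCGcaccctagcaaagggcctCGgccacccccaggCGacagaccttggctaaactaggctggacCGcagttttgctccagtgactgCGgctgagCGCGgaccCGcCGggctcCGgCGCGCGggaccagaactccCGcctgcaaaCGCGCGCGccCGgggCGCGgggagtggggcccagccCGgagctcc
Syk downstream promoter (chr13:52596702-52596901, plus strand): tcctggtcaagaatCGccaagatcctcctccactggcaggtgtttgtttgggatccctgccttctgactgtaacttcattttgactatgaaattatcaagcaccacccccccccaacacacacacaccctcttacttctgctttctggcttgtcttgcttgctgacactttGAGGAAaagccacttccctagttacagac
The upstream promoter had 24 CpGs in 200 bases and the downstream one had 1. In the middle 500 bp of the sites the ratio of observed to expected CpG was 0.848 in MES and 0.805 in HE over the upstream TSS, and 0.174 in MAC over the downstream TSS. GC content was 69.8%, 71.2% and 49.0% in the same order. The middle 500 bp of the MES and HE sites held the short and the long PU.1 motif, and that of the MAC site held the short one.

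Within the body of Syk 10 MAC sites were listed, 1.51 per 10 kb, beside 1 in MES, 0 in HB, 1 in HE and 1 in HP. Of 2508 genes from 50 to 100 kb long, 9 (0.359%) had as many sites in MAC, and the median was 1. The MAC sites in introns ran from 1.77 to 52.97 kb past the upstream TSS. Upstream of the gene, 4 MAC sites lay 2.58, 7.48, 11.03 and 15.23 kb away. HE and HP shared a site 5.67 and 5.78 kb upstream that had GATA and TEAD motifs in both lists and was not listed in MAC.

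**Figure D3:**
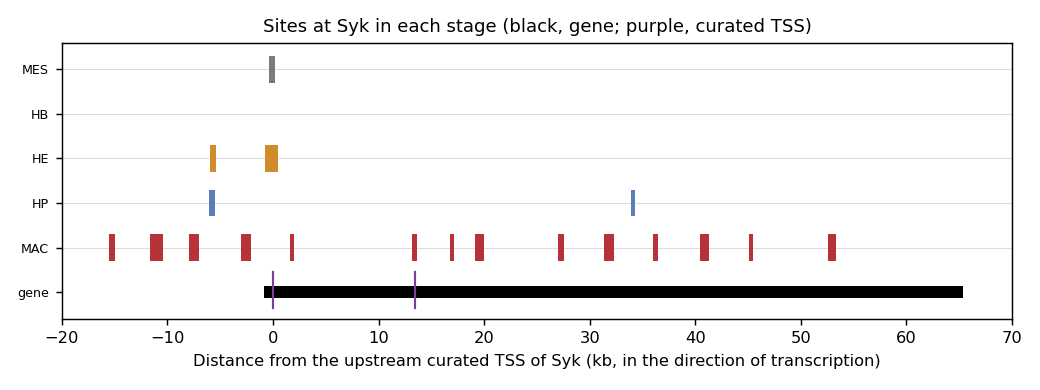
Sites assigned to Syk from 20 kb before to 70 kb past its upstream curated TSS (kb, in the direction of transcription), with 1 row per stage, the gene in black and the 2 curated TSSs in purple. Bars in MES and HE sit on the first TSS, the MAC row has a bar on the second TSS 13.42 kb further on and none on the first, and MAC bars line the gene body.

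The MAC promoter sites of the members were low in CpG beside MAC promoter sites as a whole. The 9 sites, 7 of which covered a TSS, had GC contents from 46.6% to 54.6% with a median of 50.8%, and ratios of observed to expected CpG from 0.147 to 0.405 with a median of 0.21. Over all 10457 MAC promoter sites the medians were 61.8% and 0.771. Of all these sites 72.1% were CpG-rich, with a GC content of at least 50% and a ratio of at least 0.6, and 0 of the 9 were. The members' sites had a median width of 700 bp, beside 800 bp for all.

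**Figure D4:**
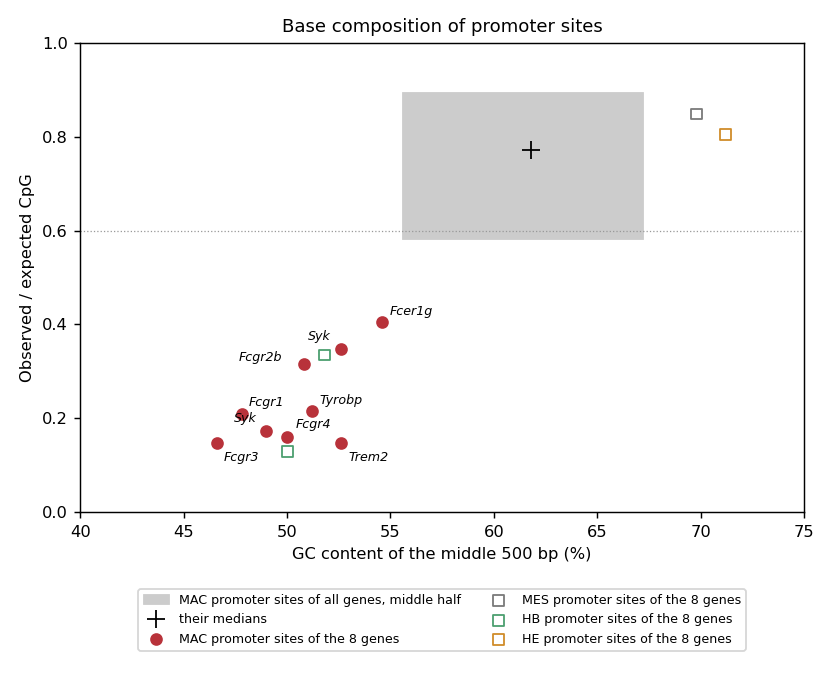
GC content (%) and ratio of observed to expected CpG in the middle 500 bp of promoter sites of the 8 genes. The grey box spans the lower to upper quartile of all MAC promoter sites on each axis, the cross marks their medians and the dotted line the ratio of 0.6. All 9 MAC sites of the members lie below the box, and the Syk sites of MES and HE lie to the right of it.

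The nearest neighbours by pattern were counted as genes with the same promoter pattern and the same number of sites in all 5 stages. There were 22 for Trem2, whose pattern of 3 sites in MAC alone is simple. Fcer1g had 2 (Dhx58 and Gfi1b), Fcgr2b had 1 (the chemokine gene Ccl4), Fcgr3 had 1 (N4bp2l1) and Tyrobp had 1 (Myo1f, a myosin gene). Fcgr1, Fcgr4 and Syk had none.

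Around the members, 64 other genes of the system were taken from 5 lists. A promoter site was present at 34 of them in MAC, 14 in HP, 23 in HE, 14 in HB and 15 in MES, and at 14 in MAC alone. The shares of all genes were 48.7%, 48.6%, 59.9%, 57.1% and 55.5%, and 1.72% in MAC alone, so the count in MAC lay near the background and those in the earlier stages lay under it, whereas the count in MAC alone lay above it. Among 12 other Fc receptor genes, 4 had a promoter site in MAC, a smaller share than among all genes, and each had it in MAC alone: Fcgrt, which recycles IgG, and the Fc receptor-like genes Fcrl1, Fcrls and Fcrlb. Fcer1a and Ms4a2, which complete the mast cell receptor for IgE with the gamma chain, had no site of any kind in any stage. Among 7 other adaptors, Hcst, which encodes DAP10, was the single one with a promoter site in MAC, beside 48.7% of all genes. Of the T and B cell adaptors in this list, Cd3d, Cd3g and Cd79a had no sites, Cd3e had 1 in MES, Cd79b had 1 in HB, and Cd247 had 3 in HB, 4 in HE and 2 in HP with a promoter site in HE.

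Of 12 receptors that pair with Tyrobp or Fcer1g, 5 had a promoter site in MAC and 8 had any MAC site, both near the shares of all genes, 48.7% and 64.6%. Trem3, Clec4e (Mincle, which pairs with the gamma chain) and Cd300ld had a promoter site in MAC and in no other stage. Of 21 kinases and effectors beside or below Syk, 16 had a promoter site in MAC, 10 in HP, 15 in HE, 10 in HB and 10 in MES, which in MAC and HE was above the share of all genes. In this group 7 had one in MAC and none in MES and HB, namely Src, Vav3, Lcp2 (SLP-76), Blnk, Lat2, Card9 and Gab2. That pattern was found at 2.97% of all genes. Of these, Blnk and Card9 had it in MAC alone, whereas Src, Lcp2 and Lat2 had it in HE and MAC, and Vav3 and Gab2 in HE, HP and MAC.

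Of 12 phosphatases and inhibitory receptors, 8 had a promoter site in MAC, 3 in HP, 5 in HE, 3 in HB and 3 in MES, above the share of all genes in MAC and under it in the other stages. Present in MAC and not in MES or HB were Inpp5d, the phosphatase SHIP1 on which Fcgr2b relies, Ptprc (CD45), Cd300a, Clec12a and Lair1. Inpp5d had its promoter site in HE also, with 6 sites in HE, 4 in HP and 7 in MAC. In this list Lair1 had 7 sites, Ptprc 6, and Clec12a, Lilrb4a and Cd72 2 each, all of them in MAC, as at Trem2. The share of all genes with sites in MAC and none earlier was not counted.

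Motif letters were counted in the middle 500 bp of each MAC site, on both strands. The short PU.1 motif GAGGAA was in 60.5% of the 43 member sites and 53.3% of all MAC sites, and its extension GAGGAAGT, which contains it, in 14.0% and 11.4%. The CEBP motif TTGCNNAA was in 37.2% and 24.2%, the RUNX motif TGTGGT in 44.2% and 34.6%, and the GATA motif AGATAA in 32.6% and 17.8%. For the TEAD motif CATTCC the shares were 30.2% and 22.4%. The AP1 motif TGANTCA was in 23.3% and 27.0%, the IRF motif GAAANNGAA in 16.3% of both, the E-box CACGTG of TFE factors in 11.6% and 10.6%, and the T-box motif GGTGTGA in 2.33% and 6.83%. The kappaB motif GGGANTTTC was in 2.33% and 2.0%. With 43 sites, 16 of them at Syk, these shares are a description, and most lay near the background.

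**Figure D5:**
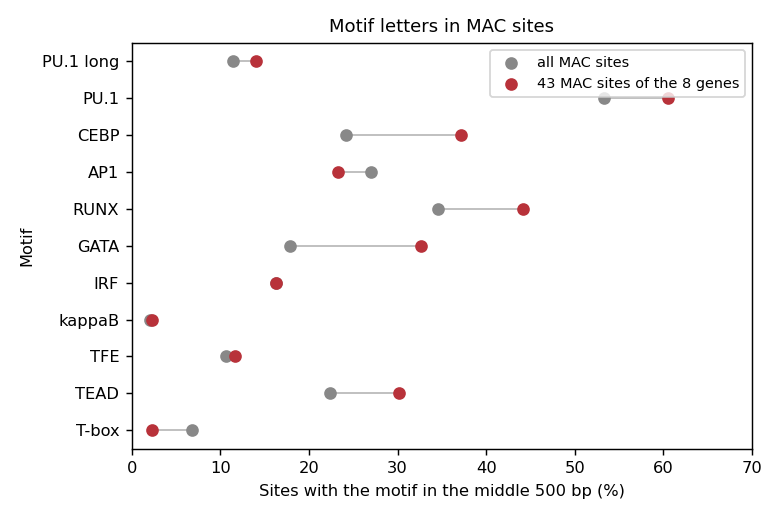
Share of MAC sites with each motif in the middle 500 bp (%), for the 43 sites of the 8 genes (red) and for all MAC sites (grey). PU.1 letters were present in most sites of both kinds, and GATA and CEBP letters were further apart between the 2 kinds than the others.

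Reads of 50 bases could be placed uniquely over nearly all of this DNA. Within 500 bp of each curated TSS of the members, 98.9% to 100% of the 50-base words occurred once in the genome. At least 90% did so in 82 of the 86 member sites. The lowest value for a gene body was 79.9%, at Fcgr3.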

How the data were processed

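DNaseI-seq was analysed in 5 stages, 1 list each. The authors' pipeline, as their methods give it, was CutAdapt for trimming, Bowtie for alignment to mm10 (GRCm38), selection of uniquely placed reads, Picard for duplicate removal and DFilter, with 100 bp bins, for site calling. The submitters' processing notes name Bowtie and HOMER, and versions were not given in the sources used here. The deposited values are other than counts or signal: the first and last base of each site without any score, so depth and its precision are unknown. Positions are given from 1.

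Sites were assigned to RefSeq GRCm38.p6 genes by distance to the nearest TSS with Python 3.11.15, pandas 2.3.3 and pysam 0.24.0, and the assignment was tested on simulated intervals. The 8 members and the gene, marker and motif lists were chosen with earlier results of these data known. All members are described. Of the 64 pathway genes, those with a promoter site in MAC and none in MES and HB are named. Genes of like pattern are named where 3 or fewer. Other pathway genes were named after their values were seen. Alternatives were other reaches, windows and widths, and another definition of the nearest gene. The annotation of 1 assigned site is not reported here.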

Additional observations from a re-analysis of the deposited data

How the results depend on the processing

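The choices were the reach from the TSS, the place of a site, the width of the sites kept, the nearest gene and the window for motifs. With 1 list per stage no replicate could be left out, and a list could be made stricter by width alone. No paired analysis was possible because the results come from no test. Counts within 1.5 times the first value were taken as unmoved. Of 30 other counts of members with a promoter site, 23 were unmoved, as were 21 of 35 counts of assigned sites. In no alternative did another stage have as many members with a promoter site, or as many assigned sites, as MAC.

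A promoter reach of 500 bp, or distances from the middle of a site, left 1 member in HB and 7 in MAC, which lost Fcgr4. A reach of 2 kb gave 3 in HE. Keeping the wider part of each list, from its median width up, left promoter sites at 0 members in MES, 1 in HB and 5 in MAC, which lost Fcgr2b, Fcgr3 and Syk. The widest 17734 sites of each list also left 5 in MAC, where the share of all genes was 38.7%. A reach of 20 kb left 5 assigned sites in MES, 6 in HB and 5 in HP. From the median width up, assigned sites numbered 24 in MAC, 3 in HP, 6 in HE, 7 in HB and 3 in MES, and the widest sites 7 in MES, 6 in HE and 24 in MAC. These gave 29 regions, 24 in MAC and 20 in MAC alone by median width, and 36, 24 and 19 by the widest sites. Without sites over tRNA or small nuclear RNA genes, added after seeing the data, 7 sites were left in MES, 7 in HB and 8 in HE. The settings by width, by shorter reach and by tRNA genes let fewer sites enter.

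In the middle 200 bp the motif shares were 32.6% for PU.1, 4.65% for its long form, 18.6% for CEBP, 14.0% for AP1, 25.6% for RUNX, 14.0% for GATA, 0% for kappaB, 4.65% for TFE and 6.98% for TEAD. In whole intervals they were 4.65% for kappaB and 4.65% for T-box. A shorter window holds fewer letters to match.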
